A study of Homo sapiens with 6 samples.

Results

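The members are 9 genes for small calcium-binding proteins: CALB2, which codes for calretinin, and S100A2, S100A4, S100A6, S100A10, S100A11, S100A13, S100A16 and S100P. They were chosen by gene symbol from the deposited count table of 29122 genes, all 9 were found there, and all 9 are among the 15907 genes that passed the filter on low counts. The choice was made with the difference between BCLAF1-depleted and control cells in these same libraries known, in particular the high position of CALB2, so the members' levels and fold changes are given as descriptions, without tests. The libraries hold polyadenylated RNA of A549, a human lung carcinoma epithelial line. Per the treatment protocol, in 3 BCLAF1-depleted libraries the cells stably carried a lentiviral short hairpin RNA against BCLAF1, whose nuclear product acts in transcription and in splicing, and in 3 control libraries a hairpin against firefly luciferase, which human cells lack. The sample titles read siBCLAF1 rather than naming a hairpin, and the source names read A649 where the cell line label and the protocols say A549; the protocols were followed here. The labels name 1 target per group and do not say whether replicates came from separate cultures, so the spread between libraries may be technical.

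Calretinin and the S100 proteins share the EF hand, a helix-loop-helix fold that holds a calcium ion. Calretinin carries several EF hands in 1 chain, acts as a calcium buffer and sensor, and is best known from neurons and as a pathology marker of mesothelial cells. S100 proteins carry a pair of EF hands, mostly work as dimers, and bind and regulate partner proteins such as annexins, myosin and p53 inside cells, while several are also released and signal through the receptor AGER. Most S100 genes of the human genome lie side by side in a cluster on the long arm of chromosome 1.

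The targeted gene, BCLAF1, had 39.0, 35.7 and 53.1 CPM where it was depleted (replicates 1 to 3), against 211, 199 and 203 CPM in the 3 control libraries. Its log2 fold change was -2.26 ± 0.16 (SE; edgeR quasi-likelihood adjusted p = 2.31e-05). CPM are counts scaled to library size, with each library's size corrected by TMM, a method that sets the bulk of genes level. Counts summed to 33409158 to 40820922 in BCLAF1-depleted libraries and to 41019185 to 43928927 in control libraries. At these depths 3 counts, the limit that a count of 0 allows, equal 0.0683 to 0.0898 CPM before scaling, for counting error only. BCLAF1-depleted replicate 1 differed from replicates 2 and 3: of the genes called higher, 84.0% were lower in replicate 1 than the mean of the other 2. BCLAF1-depleted replicate 3 had 19.3% of its counts on the mitochondrial genome, against 10.5 to 11.4% in the other 5 libraries.

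Sequence before the gene starts is shown for 4 S100 members. In CPM all 4 were higher in every BCLAF1-depleted library than in any control, S100P only barely so in replicate 1. Each window covers the 250 bases before the RefSeq start of the gene (GRCh38.p14), read 5′ to 3′ on the gene's own strand. S100A4 lies at chr1:153545807-153546056 on the minus strand, S100A6 at chr1:153535992-153536241 on the minus strand, S100A11 at chr1:152037005-152037254 on the minus strand and S100P at chr4:6693628-6693877 on the plus strand. Capitals mark matches, on either strand, to the core promoter element TATAAA, to the SP1-type box GGGCGG, to the AP-1 element TGANTCA, to the cyclic AMP response element TGACGTCA or to the E-box form CACCTG.
S100A4: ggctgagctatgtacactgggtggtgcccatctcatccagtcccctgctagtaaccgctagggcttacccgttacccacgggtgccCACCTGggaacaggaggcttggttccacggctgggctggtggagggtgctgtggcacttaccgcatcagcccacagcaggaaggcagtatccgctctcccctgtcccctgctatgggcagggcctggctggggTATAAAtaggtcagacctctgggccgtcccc
S100A6: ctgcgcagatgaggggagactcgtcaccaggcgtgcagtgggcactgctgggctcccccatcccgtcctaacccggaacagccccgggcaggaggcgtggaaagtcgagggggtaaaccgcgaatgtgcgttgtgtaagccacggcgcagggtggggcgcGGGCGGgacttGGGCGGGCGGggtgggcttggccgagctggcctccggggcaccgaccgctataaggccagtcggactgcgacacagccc
S100A11: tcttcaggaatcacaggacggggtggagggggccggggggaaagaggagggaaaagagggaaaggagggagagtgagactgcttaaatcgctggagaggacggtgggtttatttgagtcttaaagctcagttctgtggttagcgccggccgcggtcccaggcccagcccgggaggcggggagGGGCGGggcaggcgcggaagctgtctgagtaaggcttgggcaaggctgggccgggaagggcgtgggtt
S100P: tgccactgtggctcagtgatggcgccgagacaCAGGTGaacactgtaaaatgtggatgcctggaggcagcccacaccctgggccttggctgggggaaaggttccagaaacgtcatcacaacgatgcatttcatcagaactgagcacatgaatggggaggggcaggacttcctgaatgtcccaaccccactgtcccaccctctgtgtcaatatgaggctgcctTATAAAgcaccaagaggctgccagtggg
S100A4 and S100P each held a TATAAA, from -31 to -26 and from -28 to -23 relative to the start, and each held a CACCTG match. S100A6 held 3 GGGCGG matches, 2 of which overlap, and S100A11 held 1. None of these 4 windows held TGANTCA or TGACGTCA. Across all 35116 windows of the RefSeq table, 10.7% held TATAAA, 42.6% GGGCGG, 17.5% CACCTG, 6.57% TGANTCA and 1.65% TGACGTCA. Such matches describe letters only. Windows were found for 8 of the 9 members, with more than 1 start for S100A2, S100A13 and S100A16; CALB2 is named here without a sequence.

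The members differed widely in level. On the FPKM scale, the authors' deposited values scaled by gene length and library size, S100A6 (calcyclin) averaged 4652 ± 1103 in BCLAF1-depleted cells and 2475 ± 301 in control cells (SD, n = 3 each). It ranked 11 to 15 of 28878 genes in BCLAF1-depleted libraries and 18 or 19 in control libraries. In control cells S100A6 was followed by S100A10 (626 ± 21.4 FPKM), S100A11 (413 ± 50.3), S100A4 (140 ± 2.37), S100A13 (125 ± 5.25), S100A16 (45.1 ± 0.515), S100P (38.1 ± 0.469), CALB2 (2.17 ± 0.193) and S100A2 (1.27 ± 0.122), and no neighbours in this order overlapped. In BCLAF1-depleted cells S100A10 (967 ± 277 FPKM) and S100A11 (940 ± 610) overlapped, as did S100P (39.9 ± 5.63), CALB2 (39.4 ± 1.33) and S100A16 (38.6 ± 7.28), while S100A4 (331 ± 66.2), S100A13 (173 ± 41.0) and S100A2 (1.02 ± 0.233) kept apart from their neighbours. CALB2 thus ranked 1116 to 1268 in BCLAF1-depleted libraries and 8859 to 9316 in control libraries. Together the members took 0.577, 0.874 and 0.800% of all counts in BCLAF1-depleted replicates 1 to 3, against 0.380, 0.388 and 0.425% in control replicates 1 to 3. S100A6 alone made up 62.6 to 66.8% of the members' summed FPKM in BCLAF1-depleted libraries and 61.5 to 68.3% in control libraries.

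**Figure D1:**
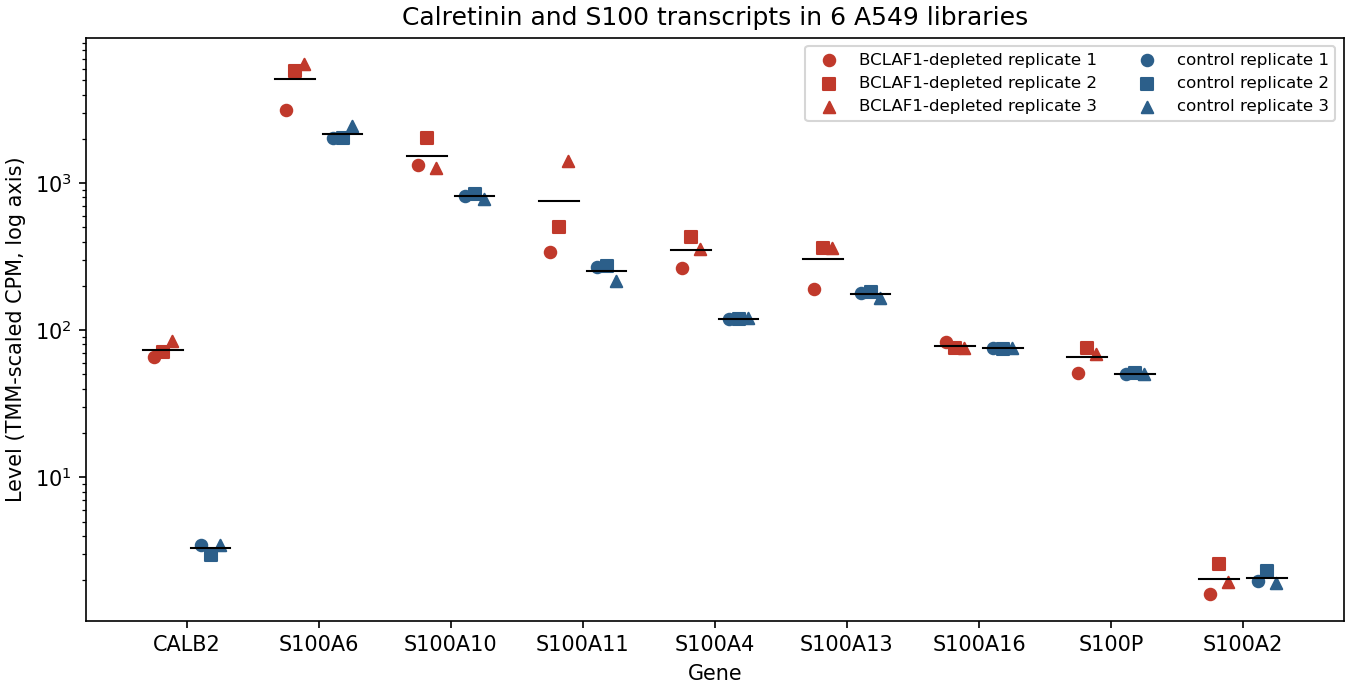
TMM-scaled CPM (log axis) of the 9 members in each library, BCLAF1-depleted in red to the left and control in blue, with a marker shape per replicate and a bar at each mean. CALB2 lies at 65.7 to 84.5 CPM in BCLAF1-depleted libraries and at 2.98 to 3.49 CPM in control libraries, while S100A16 and S100A2 overlap.

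Groups of 3 did not overlap in CPM for 7 of the 9 members, all higher in BCLAF1-depleted cells, where 51.9% of all tested genes did not overlap, 25.3% with every BCLAF1-depleted library higher and 26.6% with every one lower. Nothing is read from the members' count, since the choice of members used this contrast. Over all tested genes, 35.8% passed an adjusted p of 0.05, with 2827 higher and 2870 lower (1283 and 3662 when scaled by library totals alone, 1131 and 4453 on log2(FPKM + 1)). That scaling by totals moved the median log2 fold change of all tested genes to -0.206, against 0.020 with TMM. In bulk RNA, fewer cells that make a transcript and less of it per cell cannot be told apart.

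CALB2 (ENSG00000172137.17; chromosome 16, 71358713 to 71390438, plus strand, GRCh38), the calretinin gene, stood at 65.7, 71.3 and 84.5 CPM in replicates 1 to 3 of BCLAF1-depleted cells, against 3.44, 2.98 and 3.49 CPM in control replicates 1 to 3. The groups lay far apart and the spread within each was small, with a coefficient of variation of 13.1% in BCLAF1-depleted and 8.60% in control cells. The log2 fold change was 4.48 ± 0.15 (SE), a 22.3-fold higher level, and only 5 of the 15907 tested genes had a higher one, none of them above 2.34 CPM on average. Counts behind these values were 2305, 2431 and 2741 in BCLAF1-depleted libraries and 152, 132 and 168 in control libraries. For the lowest control count, 132, the exact 95% Poisson interval is 110 to 157 counts, for counting error only. CALB2 was the member with the least shortfall in BCLAF1-depleted replicate 1 among those clearly higher: its log2 level there was 0.24 below the mean of replicates 2 and 3, against 0.26 for S100A10, 0.56 for S100A4, 0.92 for S100A13, 0.95 for S100A6 and 1.30 for S100A11.

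The genes whose profile over the 6 libraries was nearest to that of CALB2, by the root mean square difference of log2 CPM relative to the control mean, among genes averaging 5 CPM or more, were PI3, RP11-669N7.2, PSMB8, SAA1 and IL32. PI3, the elastase inhibitor elafin, differed by 0.270 and had 19.2, 27.9 and 26.1 CPM in BCLAF1-depleted libraries against 1.31, 1.38 and 1.18 CPM in control libraries. The long non-coding transcript RP11-669N7.2 differed by 0.768, the immunoproteasome subunit gene PSMB8 by 0.860, the acute-phase gene SAA1 by 0.885 and the cytokine gene IL32 by 1.01. These genes were picked for their likeness, so no test is given for them, and no S100 member was nearer to CALB2 than S100A4, at 2.09.

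Markers of cell types known for calretinin were measured beside it. Mesothelial markers (10 genes) summed to 17.8, 20.0 and 27.7 CPM in BCLAF1-depleted libraries and to 22.8, 22.1 and 21.4 CPM in control libraries. Of 5 tested, 0 rose and 1 fell (20.0% called, against 35.8% of all tested genes). The mesothelial antigen gene MSLN, which fell, had 3.05 ± 0.624 CPM in BCLAF1-depleted and 6.42 ± 0.585 CPM in control cells (-1.08 ± 0.19, edgeR adjusted p = 0.00264). At an unadjusted p under 0.05 the list had 2 genes, MSLN and KRT5. KRT5 was higher, at 1.7 ± 0.401 CPM in BCLAF1-depleted and 1.05 ± 0.23 CPM in control cells (0.69 ± 0.26, edgeR adjusted p = 0.0635). UPK3B was at 0.36 ± 0.23, WT1 at -0.41 ± 0.21 and UPK1B at -0.08 ± 0.25. ITLN1, LRRN4, PDPN, BNC1 and HAS1, further mesothelial markers, averaged 0.0095 to 0.0779 CPM in BCLAF1-depleted and 0 to 0.0596 CPM in control cells, near or below the level of 3 counts. Neuronal markers (8 genes) summed to 51.7, 64.8 and 68.4 CPM in BCLAF1-depleted libraries and to 37.0, 41.1 and 39.8 CPM in control libraries. Of 6 tested, the synaptic vesicle gene SYP (23.9 ± 5.40 against 8.83 ± 0.465 CPM, a log2 fold change of 1.44 ± 0.17, edgeR adjusted p = 0.000400) and RBFOX3 (0.38 ± 0.13, adjusted p = 0.0447) rose and 0 fell. That is 33.3% called, against 35.8% of all tested genes. Of those not called, TUBB3 was at -0.21 ± 0.21, SNAP25 at -0.12 ± 0.31 and GAD1 at 0.06 ± 0.43. ELAVL3 was at 0.91 ± 0.42 (edgeR adjusted p = 0.113), on 16, 9 and 17 counts in BCLAF1-depleted and 8, 8 and 14 in control libraries. The RBFOX3 call was lost with library totals alone (0.529), with no low-count filter (0.101), on FPKM (0.644 to 0.689, with a log2 fold change of 0.07 to 0.08) and without any 1 library but BCLAF1-depleted replicate 1 (0.0963 to 0.190). GAD2 and STMN2 averaged 0.0588 and 0.0401 CPM in BCLAF1-depleted and 0.0151 and 0.103 CPM in control cells. The part of these markers in the CALB2 difference was not tested.

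S100A6 and S100A4 lie close together in the chromosome 1 cluster, with S100A5 between them. S100A6 (ENSG00000197956.8; chromosome 1, 153534599 to 153536244, minus strand), whose protein binds CACYBP and annexins, had 3163, 5784 and 6436 CPM in replicates 1 to 3 of BCLAF1-depleted cells, against 2018, 2035 and 2458 CPM in control replicates 1 to 3. All BCLAF1-depleted libraries lay above the controls, replicate 1 least so, and the log2 fold change was 1.24 ± 0.26. S100A4 (ENSG00000196154.10; chromosome 1, 153543613 to 153550136, minus strand), whose protein binds non-muscle myosin and is linked to cell motility, had 265, 432 and 354 CPM in BCLAF1-depleted libraries, against 119, 120 and 121 CPM in control libraries. The control values were nearly identical, with a coefficient of variation of 1.14%, against 23.8% in BCLAF1-depleted cells. Its log2 fold change was 1.55 ± 0.18, a 2.92-fold higher level.

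S100A10 and S100A11, the annexin-binding members, sit at the other end of the cluster. S100A10 (ENSG00000197747.7; chromosome 1, 151982915 to 151994390, minus strand), which has lost calcium binding and forms a complex with annexin A2, had 1331, 2013 and 1267 CPM in replicates 1 to 3 of BCLAF1-depleted cells, against 815, 848 and 784 CPM in control replicates 1 to 3. Replicate 2 was the high one, the groups did not overlap, and the log2 fold change was 0.91 ± 0.20. S100A11 (ENSG00000163191.5; chromosome 1, 152032506 to 152047907, minus strand), a partner of annexin A1, had 341, 503 and 1410 CPM in BCLAF1-depleted libraries, against 271, 275 and 217 CPM in control libraries. Here replicate 3 stood apart, 4.13-fold above replicate 1, so the mean of 752 ± 576 CPM rests largely on 1 library. The log2 fold change of S100A11 was 1.56 ± 0.42 with all libraries and 0.73 without BCLAF1-depleted replicate 3, where both remaining libraries were still above every control. Although the genes are neighbours, their ratio differed between libraries: S100A11 over S100A10 in FPKM was 0.543, 0.529 and 2.36 in BCLAF1-depleted replicates 1 to 3, and 0.704, 0.688 and 0.587 in control replicates 1 to 3.

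**Figure D2:**
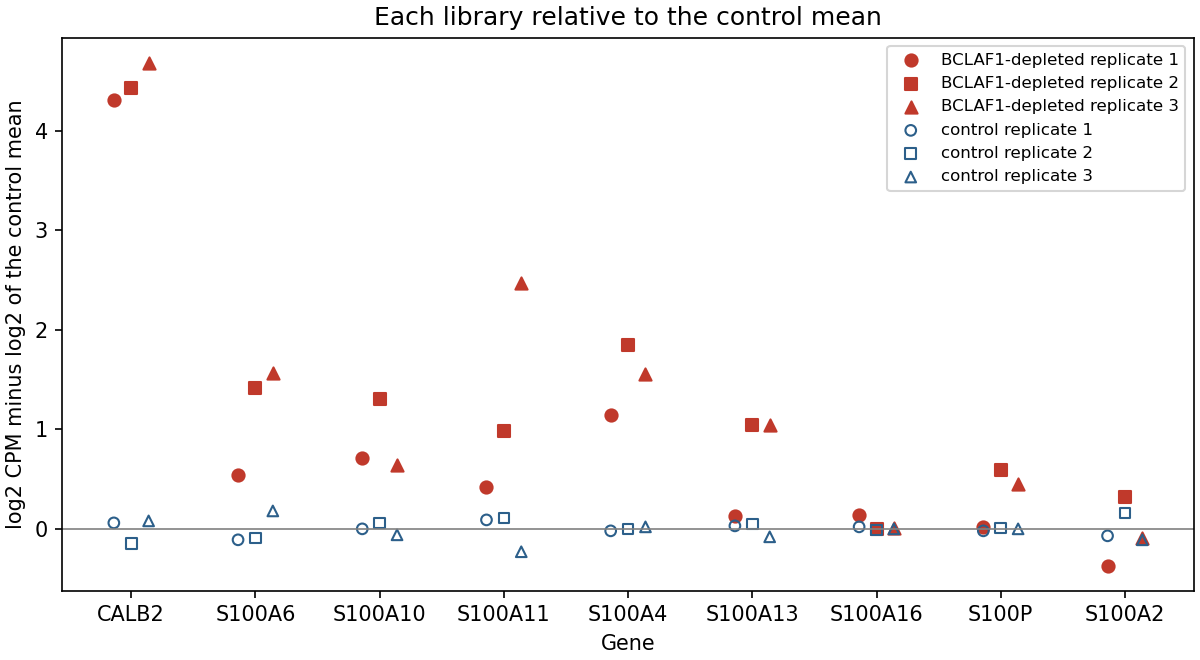
Level of each member in each library as log2 CPM minus log2 of the control mean, with filled red markers for BCLAF1-depleted and open blue markers for control libraries, 1 shape per replicate. S100A11 reaches 2.47 in BCLAF1-depleted replicate 3, against 0.42 and 0.98 in replicates 1 and 2, whereas CALB2 lies between 4.31 and 4.68.

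The level of S100A11 in BCLAF1-depleted replicate 3 was 2.80 times the higher of the other 2 BCLAF1-depleted libraries, and of 10173 tested genes that averaged 5 CPM or more only 6 reached that ratio, S100A11 included. The others, named after their values were seen, were MT-ND2, MT-ND1, GTF2H2, ONECUT3 and MTRNR2L8, of which MT-ND1 and MT-ND2 lie on the mitochondrial genome that took 19.3% of counts in that library. The nearest profiles to S100A11 over all 6 libraries were those of HMGN5 (0.158), CHCHD10 (0.225), MZF1-AS1 (0.227), SREK1IP1 (0.227) and MT-ND1 (0.246). HMGN5, a nucleosome-binding protein gene, had 60.1, 101 and 220 CPM in BCLAF1-depleted libraries and 58.2, 50.1 and 39.2 CPM in control libraries. The part of the mitochondrial share in the S100A11 value was not tested. GENCODE lists 2 pseudogenes of S100A11, whose counts were not analysed here, and reads may be shared with them, so its level is uncertain to that extent.

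S100A13 and S100P differed less. S100A13 (ENSG00000189171.12; chromosome 1, 153618787 to 153631360, minus strand), which takes part in the non-classical release of FGF1 and IL1A, had 191, 361 and 362 CPM in replicates 1 to 3 of BCLAF1-depleted cells, against 180, 181 and 166 CPM in control replicates 1 to 3. Replicate 1 was close to the controls and replicates 2 and 3 were about level with each other, with a log2 fold change of 0.80 ± 0.22. On the FPKM scale the groups overlapped, at 127, 207 and 184 in BCLAF1-depleted and 127, 128 and 118 in control libraries. Its exons share 24.2% of their length with AL162258.1 on the same strand, which had 0 to 4 counts in BCLAF1-depleted and 0 to 3 in control libraries, so the counts of S100A13 are uncertain where reads could belong to either. They share 10.6% of their length with S100A1 on the opposite strand, which had only 8, 16 and 34 counts in BCLAF1-depleted and 6, 7 and 10 in control libraries. S100P (ENSG00000163993.6; chromosome 4, 6693069 to 6697170, plus strand), a ligand of AGER and of ezrin, had 51.1, 76.0 and 68.8 CPM in BCLAF1-depleted libraries, against 50.0, 51.0 and 50.5 CPM in control libraries. Its replicate 1 was barely above the highest control, the log2 fold change was 0.37 ± 0.15, and on the FPKM scale its groups overlapped too (36.1, 46.4 and 37.2 against 37.6, 38.4 and 38.4).

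S100A16 and S100A2 overlapped between the groups. S100A16 (ENSG00000188643.9; chromosome 1, 153606886 to 153613145, minus strand), a broadly expressed member, had 83.2, 75.6 and 75.9 CPM in replicates 1 to 3 of BCLAF1-depleted cells, against 76.2, 74.7 and 75.3 CPM in control replicates 1 to 3. Its log2 fold change of 0.05 ± 0.11 turned to -0.17 with library totals alone and to -0.25 with the length and GC trend removed. S100A2 (ENSG00000196754.9; chromosome 1, 153561108 to 153567890, minus strand), a nuclear member that binds p53, was the lowest at 1.60, 2.58 and 1.94 CPM in BCLAF1-depleted and 1.97, 2.30 and 1.91 CPM in control libraries. It rests on 56 to 88 counts in BCLAF1-depleted and 87 to 102 in control libraries, and its log2 fold change of -0.01 ± 0.23 turned to 0.03 with upper-quartile scaling. A difference as large as this standard error, or somewhat larger, could have gone undetected for S100A2 at this depth.

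All 9 members are short transcripts, with exon lengths of 680 bases (S100A11) to 2216 bases (S100A13), and all fall in the shortest of 5 equal classes of tested genes by exon length (59 to 2289 bases). In that class the median log2 fold change was 0.346, against -0.188 in the class of the longest genes (7814 to 205012 bases). With the trend of fold change over length and GC content removed from each library, the log2 fold change was 4.17 for CALB2, 1.15 for S100A4, 1.13 for S100A11, 0.83 for S100A6, 0.57 for S100A10, 0.53 for S100A13, 0.01 for S100P, -0.25 for S100A16 and -0.35 for S100A2. CALB2 and the members S100A4, S100A6, S100A10, S100A11 and S100A13 thus kept a positive value, at a smaller size.

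**Figure D3:**
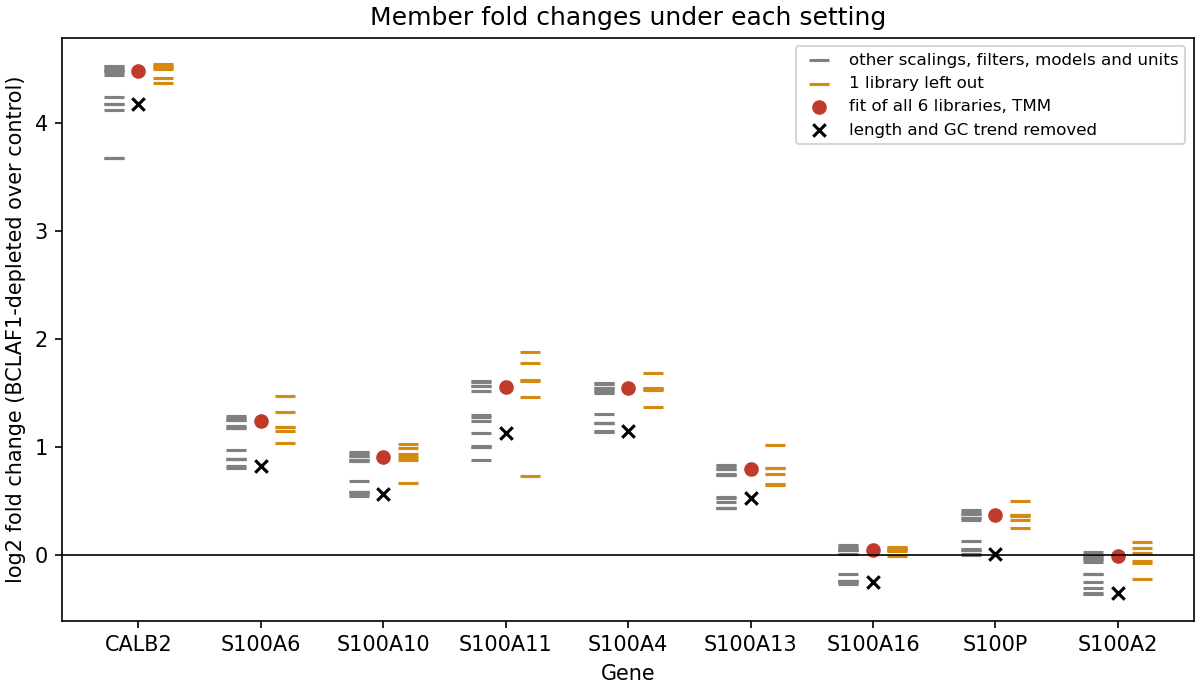
Log2 fold change of each member (BCLAF1-depleted over control) with all 6 libraries (red point), with the length and GC trend removed (cross), in the other alternatives (grey) and with 1 library left out (orange). CALB2 stays between 3.67 and 4.54 and S100A11 drops to 0.73 without BCLAF1-depleted replicate 3. S100A16 runs from -0.26 to 0.10, S100A2 from -0.36 to 0.12 and S100P from 0.0 to 0.50.

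Other S100 genes, outside the members, were tested in the fit of all genes. Their list was drawn up with earlier results of these data known, so nothing is read from its share of calls. Of 4 tested, 3 rose and 0 fell (75.0% called, against 35.8% of all tested genes). The median log2 fold change was 0.94, against 0.02 over all tested genes and 0.346 over the class of the shortest genes. With the length and GC trend removed 2 of the 4 rose and the median was 0.54. S100A9, a subunit of the inflammatory protein calprotectin, had 3.68, 4.90 and 4.19 CPM in BCLAF1-depleted libraries, against 0.905, 0.812 and 1.16 CPM in control libraries. It rose by 2.14 ± 0.22 on the log2 scale (edgeR adjusted p = 0.000146; 1.73 and 0.000246 with the length and GC trend removed). Its calprotectin partner S100A8 had 4, 16 and 9 counts in BCLAF1-depleted and 0, 2 and 2 in control libraries, too few for the filter. S100A5, between S100A6 and S100A4 on the chromosome, had 4.28 ± 0.719 CPM in BCLAF1-depleted and 1.83 ± 0.121 CPM in control cells and rose by 1.22 ± 0.19 (adjusted p = 0.00160). S100A3, whose gene lies within that of S100A4 without shared exon bases, had 44.8 ± 12.6 and 28.3 ± 1.63 CPM and rose by 0.66 ± 0.19 (adjusted p = 0.0235), a call lost with the length and GC trend removed (0.25, adjusted p = 0.171), with library totals alone (0.105), on FPKM (0.140 to 0.254) and without any 1 of 5 libraries, BCLAF1-depleted replicate 1 being the exception (0.0641 to 0.0934). S100A14 was at 0.33 ± 0.19 (adjusted p = 0.192), at -0.04 with the trend removed, and passed without BCLAF1-depleted replicate 1 (0.49, adjusted p = 0.0150). In that fit 5 of 5 tested genes of this list rose, where 48.8% of all tested genes were called. S100A1 entered it only through BCLAF1-depleted replicates 2 and 3 (16 and 34 counts, against 6, 7 and 10 in control libraries), so nothing is read from that count.

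Leukocyte markers, given beside the rise of S100A9 because that gene is best known from myeloid cells, summed over 7 genes to 1.51, 2.64 and 3.48 CPM in BCLAF1-depleted libraries and to 1.06, 0.812 and 2.08 CPM in control libraries. Of 3 tested, 1 was called (33.3%, against 35.8% of all tested genes). This was LST1, at 0.766 ± 0.417 CPM in BCLAF1-depleted and 0.0798 ± 0.0307 CPM in control cells. Its counts were 10, 34 and 33 in BCLAF1-depleted and 2, 4 and 5 in control libraries. LST1 passed the filter on low counts only through the BCLAF1-depleted libraries, where it was high, so nothing is read from its test or from the 33.3%. CD14 was higher but missed the threshold (0.524 ± 0.083 against 0.300 ± 0.0105 CPM, 0.79 ± 0.33, edgeR adjusted p = 0.0838). With LST1 it made 2 genes at an unadjusted p under 0.05. CD68 was at 0.37 ± 0.53 (edgeR adjusted p = 0.612). The pan-leukocyte gene PTPRC averaged 0.0486 and 0.0226 CPM and the lysozyme gene LYZ 0.0493 and 0.0597 CPM in BCLAF1-depleted and control cells, below the level of 3 counts. TYROBP averaged 0.0601 and 0.0144 CPM, below that level too. The part of these markers in the S100A9 value was not tested.

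Along chromosome 1, from S100A10 at 151982915 to the end of S100A13 at 153631360 (GRCh38), 46 genes of the count table lie, 7 of them members. This span was set after the values were seen. Of the 39 others, 7 were tested, and 5 of these rose and 0 fell, where 17.8% of all tested genes rose. The ends of the span are members chosen on this same contrast, so nothing is read from that count. The 5 were S100A9, S100A5 and S100A3 as above, TCHH and the antisense transcript AL591893.1. TCHH, the fused-type S100 gene for the hair follicle protein trichohyalin, had 13.5, 13.1 and 23.4 CPM in BCLAF1-depleted and 8.21, 7.19 and 7.48 CPM in control libraries (1.12 ± 0.22, edgeR adjusted p = 0.00432; 0.0807 on unfiltered FPKM). It was the 1 tested gene of its list of fused-type S100 genes. AL591893.1, which overlaps the S100A11 gene on the opposite strand without shared exon bases, had 3.99 and 1.97 CPM on average in BCLAF1-depleted and control cells (1.02 ± 0.23, adjusted p = 0.00923; 0.108 on unfiltered FPKM). S100A2, S100A16 and S100A14, which follow each other among the tested genes, had the lowest log2 fold changes of the span.

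**Figure D4:**
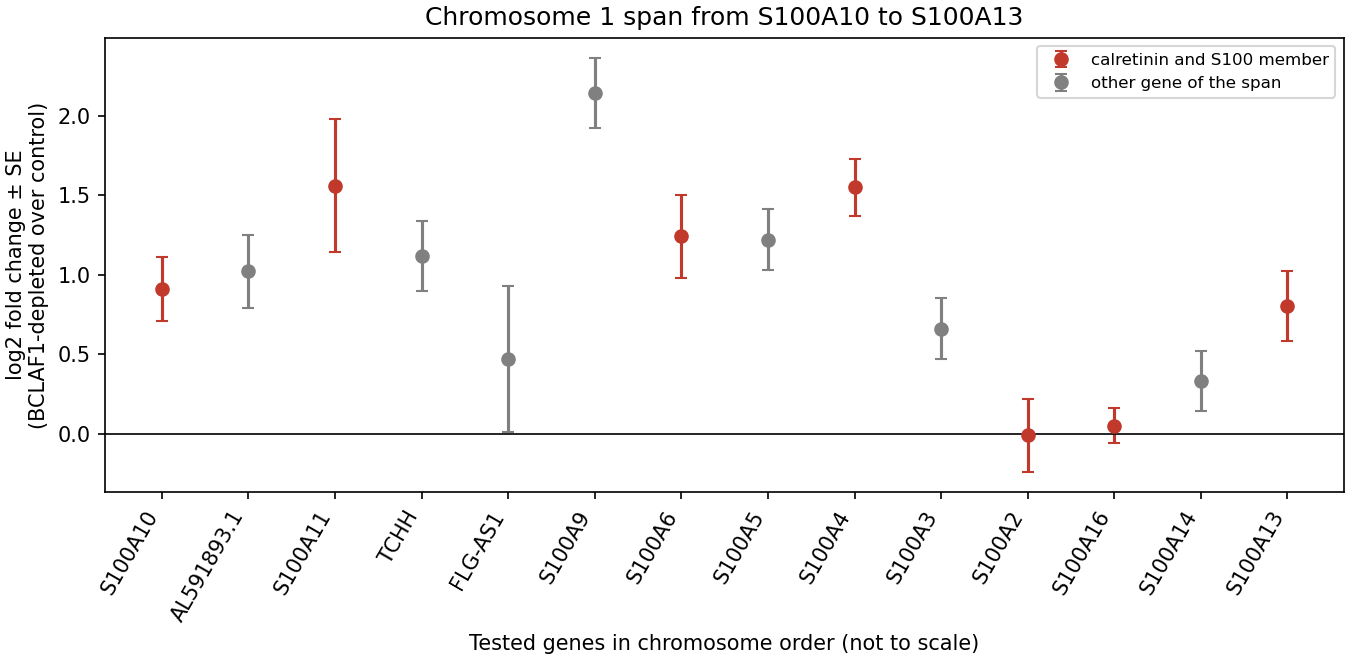
Log2 fold change ± SE (BCLAF1-depleted over control) of the 14 tested genes between S100A10 and S100A13 in chromosome order, not to scale, members in red and others in grey. S100A9 is highest at 2.14, and the neighbours S100A2, S100A16 and S100A14 lie at -0.01, 0.05 and 0.33.

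Calbindin, the closest relative of calretinin, was also higher. CALB1, the 1 tested gene of its list, had 1.85, 1.26 and 1.17 CPM in BCLAF1-depleted libraries and 0.407, 0.812 and 0.811 CPM in control libraries (1.07 ± 0.33, edgeR adjusted p = 0.0283). This call was lost with library totals alone (0.0867), on FPKM (0.102 to 0.271) and without any 1 library other than BCLAF1-depleted replicate 3 (0.0548 to 0.107). Of 22 tested calmodulin and calcium sensor genes, 5 rose and 3 fell (36.4%, near the 35.8% of all genes; median 0.03). The count was 13 without BCLAF1-depleted replicate 1 and 3, 4 and 5 without control replicates 1, 2 and 3. CALML6, a calmodulin-like gene, rose at a low level (1.14 ± 0.422 against 0.360 ± 0.082 CPM, edgeR adjusted p = 0.00825; 0.0605 on unfiltered FPKM). Genes of the neuronal calcium sensor family went both ways. NCALD (14.5 ± 2.03 against 22.1 ± 1.17 CPM, adjusted p = 0.00760) and VSNL1 fell, VSNL1 with 1, 1 and 3 counts in BCLAF1-depleted and 26, 12 and 20 in control libraries, a ratio of 0.0983 (exact 95% interval 0.0308 to 0.243, counting error only). VSNL1 passed the filter on low counts only through the control libraries, so nothing is read from its test. It is among the 3 that fell and in the 36.4%, so nothing is read from these either. NCS1 rose (27.9 ± 2.59 against 20.4 ± 2.03 CPM; 0.45 ± 0.13, adjusted p = 0.0222), a call lost with library totals alone (0.373), on FPKM (0.548 to 0.605) and without BCLAF1-depleted replicate 2 (0.0573) or control replicate 1 or 2 (0.127 and 0.0902). HPCAL1 was at 0.03 ± 0.12 (adjusted p = 0.866). EFHD1 fell too (-1.14 ± 0.29, adjusted p = 0.0141), but not without control replicate 1 or 3 (0.0682 and 0.0616).

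Among 10 tested EF-hand genes of the secretory pathway, 2 rose and 3 fell (50.0% called, against 35.8% of all tested genes, with a median of -0.10). FSTL1, a secreted follistatin-like glycoprotein, fell most of them, with 15.2, 8.39 and 12.5 CPM in BCLAF1-depleted and 64.3, 65.5 and 68.1 CPM in control libraries (-2.45 ± 0.19, edgeR adjusted p = 3.76e-05). CALU, the calumenin gene of the endoplasmic reticulum, fell by 0.90 ± 0.20 on the log2 scale (144 ± 43.6 against 268 ± 9.25 CPM, adjusted p = 0.00816). RCN3 (0.68, adjusted p = 0.0366) and NUCB2 (0.60, adjusted p = 0.0274) rose, both calls being lost with library totals alone (0.172 and 0.0932) and without BCLAF1-depleted replicate 2 (0.125 and 0.0560) or any 1 control (0.0921 to 0.131 and 0.0777 to 0.105). Both were lost on FPKM (0.217 to 0.379 and 0.138 to 0.199). RCN3 was lost without BCLAF1-depleted replicate 3 (0.0658) and with the length and GC trend removed (0.41, adjusted p = 0.112) as well. Of 7 penta-EF-hand genes only the calpain subunit gene CAPNS1 passed (0.48 ± 0.15, adjusted p = 0.0304), not with the length and GC trend removed (0.0618) nor without any 1 library but BCLAF1-depleted replicate 1 (0.0536 to 0.147). Without that replicate the list had 2 calls (28.6%, where 48.8% of all tested genes were called). With all libraries 14.3% of the tested penta-EF-hand genes were called, against 35.8% of all tested genes.

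Annexins are partners of S100A10, S100A11 and S100A6. Their summed level was 5557, 5271 and 5113 CPM in BCLAF1-depleted libraries and 4807, 4761 and 4420 CPM in control libraries. Of 13 tested annexin genes 0 rose and 5 fell (38.5% called, against 35.8% of all tested genes; median -0.15; 6 at an unadjusted p under 0.05). With the length and GC trend removed 3 rose and 5 fell, and in the DESeq2 test 2 rose and 5 fell. ANXA4 had 103 ± 17.8 CPM in BCLAF1-depleted and 232 ± 9.93 CPM in control cells (-1.18 ± 0.15, edgeR adjusted p = 0.000521), ANXA6 47.9 ± 2.96 and 80.0 ± 4.49 CPM (-0.74 ± 0.11, adjusted p = 0.00157), and ANXA10, ANXA8L1 and ANXA13 fell as well. ANXA10, with 10, 4 and 5 counts in BCLAF1-depleted libraries, passed the filter on low counts only through the control libraries, so nothing is read from its test. It is among the 5 that fell and in the 38.5%, so nothing is read from these either. Without BCLAF1-depleted replicate 1 the list had 8 calls, 1 higher and 7 lower (61.5%, where 48.8% of all tested genes were called). ANXA8L1 has a close copy in ANXA8, so its counts are uncertain. ANXA2, the S100A10 partner, was chosen for that role: it had 2568, 2584 and 2397 CPM in BCLAF1-depleted and 2060, 2078 and 1992 CPM in control libraries. The difference of ANXA2, 0.30 ± 0.15 on the log2 scale, missed the threshold (edgeR adjusted p = 0.140), but passed with the length and GC trend removed (0.54, adjusted p = 0.0177) and in DESeq2 (0.31, adjusted p = 0.0263). On the FPKM scale ANXA2 was about level, averaging 1060 in BCLAF1-depleted and 1046 in control cells. ANXA1, the S100A11 partner, was at 0.27 ± 0.16 (adjusted p = 0.188), and at 0.43 (adjusted p = 0.0403) with that trend removed, but at -0.02 on FPKM. ANXA11 had 380 ± 45.1 CPM in BCLAF1-depleted and 291 ± 16.7 CPM in control cells (0.39 ± 0.14, adjusted p = 0.0543), and passed with the trend removed (0.50, adjusted p = 0.0195), in DESeq2 (0.0207) and without BCLAF1-depleted replicate 1 (0.00765). On the FPKM scale ANXA11 averaged 41.2 in BCLAF1-depleted and 38.8 in control cells.

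Of 22 tested genes for other S100 partners and receptors, 3 rose and 5 fell (36.4% called, against 35.8% of all tested genes, with a median of -0.09). SUGT1, a co-chaperone bound by S100A6, rose by 0.74 ± 0.15 (105 ± 16.9 against 62.7 ± 5.79 CPM, edgeR adjusted p = 0.00492; 0.0518 and 0.0617 on log2(FPKM + 1) with and without the filter), as did the giant scaffold gene AHNAK2 (667 ± 164 against 380 ± 30.8 CPM, adjusted p = 0.00872; 0.0510 without control replicate 3). AHNAK was at -0.03 ± 0.16 (adjusted p = 0.882). CACYBP, the S100A6 partner, rose by 0.43 ± 0.14 (394 ± 42.7 against 293 ± 7.47 CPM, adjusted p = 0.0331). Of the non-muscle myosin genes, MYH10 fell (-0.69 ± 0.14, adjusted p = 0.00549) and MYH9 was at -0.11 ± 0.17 (adjusted p = 0.651). IQGAP1, a cytoskeletal scaffold, had 156 ± 51.9 CPM in BCLAF1-depleted and 316 ± 17.9 CPM in control cells (-1.02 ± 0.21, adjusted p = 0.00560), and HLTF, a helicase-like factor bound by the S100A10 complex, 41.9 ± 9.32 and 89.2 ± 2.65 CPM (-1.09 ± 0.16, adjusted p = 0.00122). The receptor gene AGER was low, at 3.08, 4.28 and 6.41 CPM in BCLAF1-depleted and 3.28, 3 and 2.93 CPM in control libraries (0.58 ± 0.25, adjusted p = 0.0896). AGER passed without BCLAF1-depleted replicate 1 (0.78, adjusted p = 0.00976) and with no low-count filter (0.0389). Without control replicate 3 the list had 5 calls (21.7%, where 19.7% of all tested genes were called).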

How the data were processed

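The deposited count table gives the authors' whole-number read counts per gene and library, not normalized, and the deposited FPKM table gives the authors' values scaled by gene length and library size. The submitters' processing notes name GRCh38, TopHat2, bcl2fastq and edgeR; which tool counted reads, with which annotation and strand setting, is not stated in the sources used here. Polyadenylated RNA was selected per the labels' protocols, so levels depend on intact poly(A) transcripts.

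Counts were fitted with edgeR 4.0.16 in R 4.3.3 (glmQLFit and glmQLFTest, group as the only term, TMM) on all 6 libraries, after filterByExpr with a minimum count of 10 and total of 15. Benjamini-Hochberg adjustment ran over the 15907 tested genes, with calls under 0.05. Positions and exon lengths came from GENCODE release 29, matched by identifier, and 15775 tested genes had length and GC content; the trend was fitted per library with mgcv 1.9.3. Alternatives used DESeq2 1.42.0, limma 3.58.1 and log2(FPKM + 1) or log2(FPKM + 0.1). The scripts were tested on simulated counts. The members and gene lists were chosen with earlier results of these data known. Genes outside the members were named by rule: up to 4 called genes per list with the largest change, or 2 with the highest level, and the 5 nearest profiles of CALB2 and S100A11. Partner, sensor, marker and span genes outside that rule were added for their role or after their values were seen.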

Additional observations from a re-analysis of the deposited data

How the results depend on the processing

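Depth, and replicates that spread more after BCLAF1 depletion, limit small changes, and the 3 replicates per group give no check of separate cultures. Across the alternatives CALB2 ran from 3.67 to 4.52, and with 1 library left out from 4.37 to 4.54; S100A4, S100A6, S100A10, S100A11 and S100A13 kept a positive value in every one (lowest 1.14, 0.81, 0.55, 0.73 and 0.44). S100A16 turned negative with library totals alone (-0.17), with the length and GC trend removed (-0.25, and -0.26 with the replicate block) and in the 3 FPKM settings (-0.24 each), and ran from -0.01 to 0.08 with 1 library left out. S100A2 turned positive with upper-quartile scaling (0.03) and ran from -0.22 to 0.12 with 1 library left out. S100A14 turned to -0.04 and -0.05 with the trend removed, without and with the block, and ANXA1 to -0.02 in the 3 FPKM settings. The cause was not tested. Calls over all genes numbered 2630 on log2(FPKM + 1) with no filter, where more low genes are tested, and 2938 to 7936 with 1 library left out, 2938 to 3188 when that was a control. Other S100 genes called numbered 5 with no low-count filter and 1 of 2 tested at 5 CPM or more; TCHH was not called on log2(FPKM + 1) with no filter (0). The calbindin list had 0 calls with library totals alone and in the 3 FPKM settings, and the penta-EF-hand list 0 in these and with the length and GC trend removed, without and with the block. Calmodulin and sensor genes called numbered 5 with library totals alone and 3 on unfiltered FPKM, annexins 8 with the length and GC trend removed, and partner genes 4 on unfiltered FPKM. With 1 library left out, calls ran from 2 to 5 (other S100), 1 to 1 (fused-type), 0 to 1 (calbindin), 3 to 13 (calmodulin and sensors), 0 to 2 (penta-EF-hand), 3 to 6 (secretory), 5 to 8 (annexins) and 5 to 10 (partners). The share called over all tested genes ran from 18.1 to 48.8% in the same fits. Replicate numbers are shared between the groups, but the labels do not say that they mark pairs: correlations of same-numbered deviations were 0.036 to 0.1186, all 6 libraries correlating best with their own number. With the replicate number as a block 6007 genes were called, against 5697 without it.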

Other observations

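Markers of other cell types that an A549 culture could hold were low. Fibroblast markers (8 genes) summed to 14.8, 17.0 and 16.7 CPM in BCLAF1-depleted libraries and to 23.7, 25.6 and 22.8 CPM in control libraries. Of 5 tested, 0 rose and 1 fell (20.0% called, against 35.8% of all tested genes), and 1 passed at an unadjusted p under 0.05. The 1 that fell was the collagen gene COL1A1 (9.89 against 17.7 CPM, edgeR adjusted p = 0.00136). Endothelial markers (6 genes) summed to 2.88, 2.26 and 2.40 CPM in BCLAF1-depleted and 2.38, 1.78 and 1.95 CPM in control libraries. Of 2 tested, 1 rose and 1 fell (100% called, against 35.8% of all tested genes). CDH5 rose (1.64 against 0.712 CPM, edgeR adjusted p = 0.00822). PECAM1 fell (0.581 against 1.08 CPM, edgeR adjusted p = 0.0359, and 0.0671 with the length and GC trend removed). The epithelial keratin genes KRT8 and KRT18 stood at 16145 and 18245 CPM in BCLAF1-depleted and 16030 and 15146 CPM in control cells. Of 9 tested identity markers of the line 3 rose, AKR1C1, NQO1 and KRT19, and 0 fell (33.3% called, against 35.8% of all tested genes). KRT19 was low (0.616 against 0.28 CPM, edgeR adjusted p = 0.0495, and 0.0961 with the length and GC trend removed). ALDH1A1 was lower in every BCLAF1-depleted library (5342 ± 723 against 7338 ± 79.5 CPM). It missed the threshold (-0.46 ± 0.18, edgeR adjusted p = 0.0702) but passed with that trend removed (-0.47, adjusted p = 0.0473).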
